A study of Mus musculus with 4 samples.

Results

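The genes described here encode the proteins of the mitochondrial ribosome, measured in group 2 innate lymphoid cells (ILC2s) of the mouse colon with and without FK866. They were chosen as the protein-coding genes of the deposited count table whose mouse symbol begins with Mrpl or Mrps followed by a digit, which gave 78 of 55487 gene IDs, 49 named Mrpl (large subunit) and 29 named Mrps (small subunit). FK866 is a small-molecule inhibitor of NAMPT, the enzyme that makes nicotinamide mononucleotide in the salvage route to NAD+. All 4 libraries came from sorted gut ILC2s, kept in culture with the alarmins IL-25 and IL-33 and with IL-7 and IL-2. The 2 control libraries had no inhibitor, and the 2 FK866 libraries had it for 16 h. The mouse strain, age and genotype, the FK866 dose and the vehicle of the controls are not stated in the labels used here. The labels also do not say whether replicates came from separate animals or cultures, so p-values reflect the spread of these libraries alone, and that spread may be technical.

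The mitochondrial ribosome translates the mRNAs of the mitochondrial genome, which encode core subunits of the respiratory chain and of ATP synthase. Its rRNAs are transcribed from mitochondrial DNA, while its proteins are encoded in the nucleus, made in the cytosol and imported. The small subunit binds the mRNA and reads its codons, and the large subunit forms the peptide bond and releases the new chain through an exit tunnel at the inner membrane. Many of the proteins descend from bacterial ribosomal proteins, and others are found only in mitochondria. Symbols and places in the structure do not fully match: Mrps30 and Mrps18a are built into the large subunit, and Mrps36 is now assigned to the 2-oxoglutarate dehydrogenase complex rather than to the ribosome.

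Promoters of 6 genes are shown first, because the genes differed in how far their mRNA moved: Mrpl20, Mrpl41, Mrpl36, Mrps12 and Mrps21 fell in FK866, and Mrpl9 was higher in both FK866 libraries without passing the test. The promoters of Mrpl20, Mrpl41, Mrps12 and Mrps21 were taken as those of the 2 called members of each subunit with the smallest adjusted p, and the promoters of Mrpl36 and Mrpl9 were added after the values were seen. Each sequence is the RefSeq promoter (build GRCm38.p6) from 200 bases before the transcription start to 10 bases after it, 5′ to 3′ on the gene's strand. Capitals mark exact matches, on either strand, to the motifs of the factors NRF1 (GCGCA, then any base, then GCGC), GABPA (CCGGAAG) and YY1 (AAGATGGC), which are known regulators of nuclear genes for mitochondrial proteins. A GABPA match can share its final AAG with a YY1 match, and an NRF1 match that reads the same on both strands was counted once.
Mrpl20, chr4:155802678-155802887, plus strand: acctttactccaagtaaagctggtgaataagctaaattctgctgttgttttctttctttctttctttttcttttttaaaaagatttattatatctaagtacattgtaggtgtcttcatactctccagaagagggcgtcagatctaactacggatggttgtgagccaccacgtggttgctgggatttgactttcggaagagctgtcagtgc
Mrpl41, chr2:24975089-24975298, minus strand: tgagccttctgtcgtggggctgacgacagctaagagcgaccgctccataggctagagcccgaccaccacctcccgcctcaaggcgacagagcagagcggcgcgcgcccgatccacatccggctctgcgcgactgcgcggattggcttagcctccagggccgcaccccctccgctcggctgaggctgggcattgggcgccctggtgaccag
Mrpl36, chr13:73330809-73331018, plus strand: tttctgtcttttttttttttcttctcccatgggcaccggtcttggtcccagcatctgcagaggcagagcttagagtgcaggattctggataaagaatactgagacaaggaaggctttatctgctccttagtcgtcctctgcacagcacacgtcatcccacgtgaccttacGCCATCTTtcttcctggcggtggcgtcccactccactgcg
Mrps12, chr7:28741812-28742021, minus strand: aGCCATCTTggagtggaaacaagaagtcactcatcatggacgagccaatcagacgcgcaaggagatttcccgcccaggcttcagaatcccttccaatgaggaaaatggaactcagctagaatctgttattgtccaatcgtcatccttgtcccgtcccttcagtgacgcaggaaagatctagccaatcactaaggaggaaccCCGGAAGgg
Mrps21, chr3:95871505-95871714, minus strand: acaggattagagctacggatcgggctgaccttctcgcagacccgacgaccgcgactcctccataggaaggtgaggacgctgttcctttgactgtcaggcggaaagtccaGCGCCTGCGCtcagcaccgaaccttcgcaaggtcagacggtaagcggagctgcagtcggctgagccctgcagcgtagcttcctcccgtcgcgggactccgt
Mrpl9, chr3:94443136-94443345, plus strand: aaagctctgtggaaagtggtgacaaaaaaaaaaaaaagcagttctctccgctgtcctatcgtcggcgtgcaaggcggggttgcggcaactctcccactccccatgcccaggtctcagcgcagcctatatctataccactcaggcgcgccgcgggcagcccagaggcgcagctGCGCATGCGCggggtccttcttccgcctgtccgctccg
The Mrpl36 stretch held a YY1 match 30 bases before the start. That RefSeq start lies inside the gene span of GENCODE (73328513 to 73332178), not at its first base. That of Mrps12 held a YY1 match from 199 bases before the start and a GABPA match at base 2 after it. In Mrps21 and Mrpl9 an NRF1 match lay 91 and 28 bases before the start. The printed stretches of Mrpl20 and Mrpl41 held no match to these letters, which says nothing of whether the factors bind there.

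FK866 libraries held less mitoribosomal mRNA than control libraries. Of the 77 members that passed the filter on low counts, 27 fell and 0 rose, at an adjusted p under 0.05 in edgeR's quasi-likelihood test with Benjamini-Hochberg adjustment over all 19194 genes tested. Across those genes 13.2% were called, 7.89% lower and 5.31% higher, against 35.1% of the members called lower. Among the 5537 protein-coding genes within the members' own range of mean level, 15.2% were called lower and 11.2% higher. At an unadjusted p under 0.05, 43 members were lower and 3 were higher. With DESeq2, 27 members were called lower, and 2 higher, Mrpl9 and Mrps30, beside 8.91% and 7.3% of all genes.

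The members' median log2 fold change was −0.38, against 0.03 over all genes tested and −0.05 over the protein-coding genes of the same range of level. The middle 50% of the members lay between −0.63 and −0.24.

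In 63 of the 77 members both FK866 libraries lay below both control libraries, and in 4 they lay above. The same order was seen in 29.3% of all genes tested (below) and 28.4% (above), and in 39.0% of protein-coding genes in the members' range of level (below). The log2 fold change was negative in 71 members.

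The count of calls moved with the libraries used. Without FK866 replicate 2, 10 members were called lower, and without control replicate 1, 42 were. Without FK866 replicate 1 and without control replicate 2 the counts were 25 and 27. In these fits the lone library of a group is taken to vary like the libraries of the other group.

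**Figure D1:**
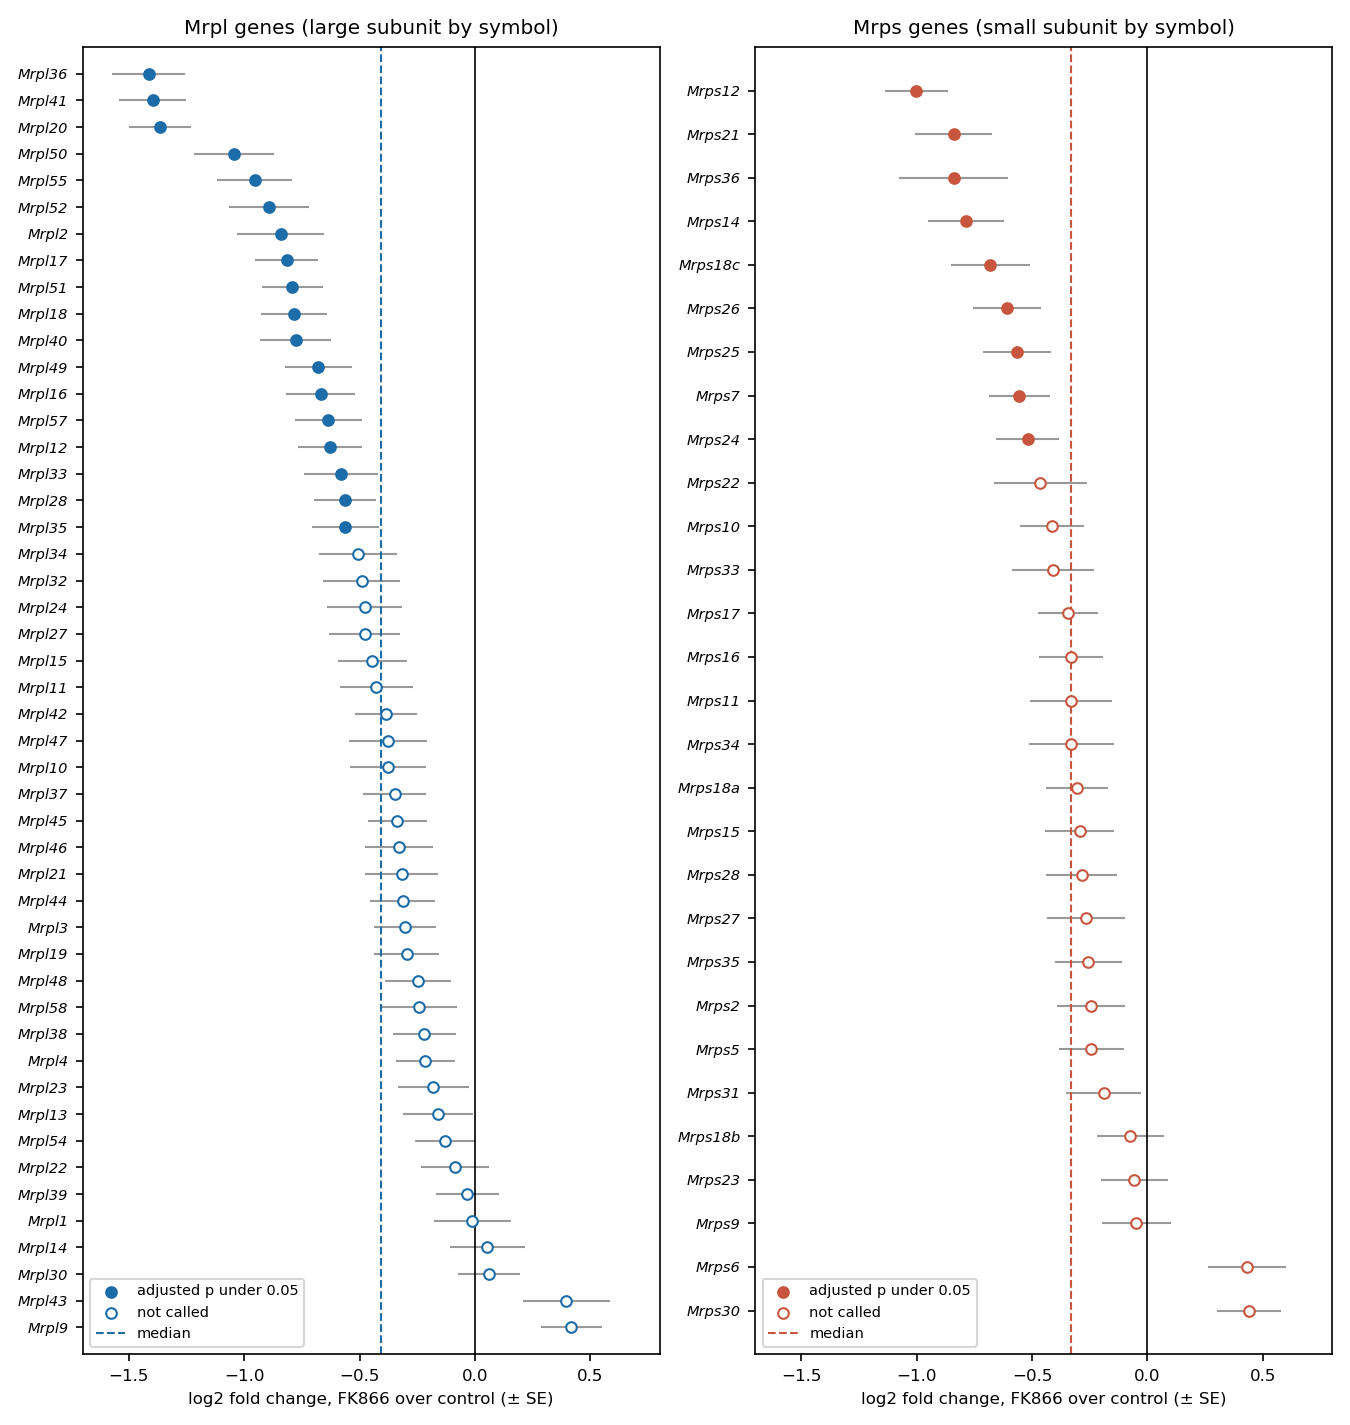
Log2 fold change of FK866 over control (x axis) with its SE for each of the 48 tested Mrpl genes (left) and 29 Mrps genes (right), in order of size; filled points passed an adjusted p under 0.05 and the dashed line is the median. All 27 filled points lie left of 0, and the 2 Mrpl and 2 Mrps genes at the bottom lie right of it at 0.40 to 0.44 without passing the test.

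The summed level of the members was 6704 and 6840 CPM (counts relative to the TMM-scaled library total) in control replicates 1 and 2, and 5272 and 4826 CPM in FK866 replicates 1 and 2. The FK866 mean was 74.6% of the control mean (5049 ± 315 against 6772 ± 96.3 CPM, SD, n = 2 each), with no overlap between the groups. In bulk samples, less RNA per cell and fewer cells of a type cannot be told apart. As a share of the scaled library total, the members took 0.670% and 0.684% in control and 0.527% and 0.483% in FK866. The 2 FK866 libraries differed from each other in 1 direction for most members: 62 of 77 were lower in replicate 2 than in replicate 1.

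Large-subunit proteins included the members with the deepest fall. Mrpl20, a homolog of the bacterial large-subunit protein L20, lies on chromosome 4 (155802878 to 155809975, plus strand, build GRCm38) and was the most abundant member per length, at 301 CPM per kb of transcript in control and 117 in FK866. Its level was 142 and 155 CPM in the control libraries and 58.3 and 56.9 CPM in the FK866 libraries. The groups lay far apart beside the spread within each, with a log2 fold change of −1.37 ± 0.14 (SE) and an edgeR adjusted p of 0.0012.

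Mrpl41, a mitochondria-specific large-subunit protein that has also been described as a regulator of apoptosis, lies on chromosome 2 (24974117 to 24975098, minus strand). It had 79.2 and 74.3 CPM in control and 29.0 and 29.2 CPM in FK866. The FK866 replicates were nearly equal, and the log2 fold change was −1.40 ± 0.15 (edgeR adjusted p 0.0015).

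Mrpl36, a small zinc-binding protein related to bacterial L36 that joins the large subunit late in its assembly, lies on chromosome 13 (73328513 to 73332178, plus strand). Its level was 111 and 126 CPM in control and 48.7 and 40.3 CPM in FK866. FK866 brought it to 37.5% of control, the lowest share of any tested member, at a log2 fold change of −1.42 ± 0.16 (edgeR adjusted p 0.0018).

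Mrps12 was the small-subunit gene with the strongest fall. It encodes the homolog of bacterial S12, the protein at the decoding centre that is the known site of streptomycin resistance, and lies on chromosome 7 (28739641 to 28741820, minus strand). Control libraries held 110 and 103 CPM and FK866 libraries 52.0 and 54.6 CPM. The log2 fold change was −1.002 ± 0.14 (edgeR adjusted p 0.0040), and no value of either group came near the other group.

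Mrpl50, a mitochondria-specific large-subunit protein, had 46.5 and 49.5 CPM in control and 25.3 and 21.3 CPM in FK866 (log2 fold change −1.05, edgeR adjusted p 0.0075). Mrpl20, Mrpl41, Mrpl36, Mrps12 and Mrpl50 were the 5 members that fell at least 2-fold.

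Members at several functional sites fell by less than 2-fold. Mrpl17, which lies at the exit tunnel, was among the most highly counted members, with 192 and 192 CPM in control and 118 and 101 CPM in FK866. Its log2 fold change was −0.82 ± 0.14 (edgeR adjusted p 0.0078). Mrpl51, another mitochondria-specific protein of the large subunit, had 136 and 141 CPM in control and 83.2 and 76.8 CPM in FK866 (−0.79, edgeR adjusted p 0.0077).

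The central protuberance, where the large subunit meets the small one, was represented by Mrpl55, Mrpl18 and Mrpl40. Mrpl55, related to bacterial L31, had 81.4 and 75.6 CPM in control and 45.02 and 36.0 CPM in FK866 (−0.96, edgeR adjusted p 0.0081). Mrpl18, a homolog of the protein that binds the 5S rRNA in bacteria, had 99.1 and 116 CPM in control and 63.1 and 61.7 CPM in FK866 (−0.78, edgeR adjusted p 0.0108). Mrpl40, which is mitochondria-specific, had 82.5 and 88.4 CPM against 54.6 and 45.1 CPM (−0.78, edgeR adjusted p 0.0144). In each of these 3 genes both FK866 values lay below both control values. The other 4 tested members at this site, among them the peptidyl-tRNA hydrolase Mrpl58 (57.6 and 50.6 CPM in control, 49.9 and 41.4 CPM in FK866, −0.24, edgeR adjusted p 0.39), did not pass the test.

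Mrpl52, of the large subunit, had 54.4 and 62.5 CPM in control and 34.6 and 28.3 CPM in FK866 (−0.89, edgeR adjusted p 0.0129). Mrps21, a homolog of bacterial S21 in the platform region of the small subunit, had 61.6 and 62.4 CPM in control and 38.5 and 30.8 CPM in FK866 (−0.84, edgeR adjusted p 0.0140). Both genes have short transcripts, and both lost the call once the relation of fold change to transcript length and GC content was removed (−0.41 for Mrps21). The other 15 called members, 8 Mrpl and 7 Mrps genes, had log2 fold changes from −0.84 to −0.52 and adjusted p values from 0.0172 to 0.0488. Over all 27, the FK866 level was between 37.5% and 69.7% of control, with a median of 58.1%.

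**Figure D2:**
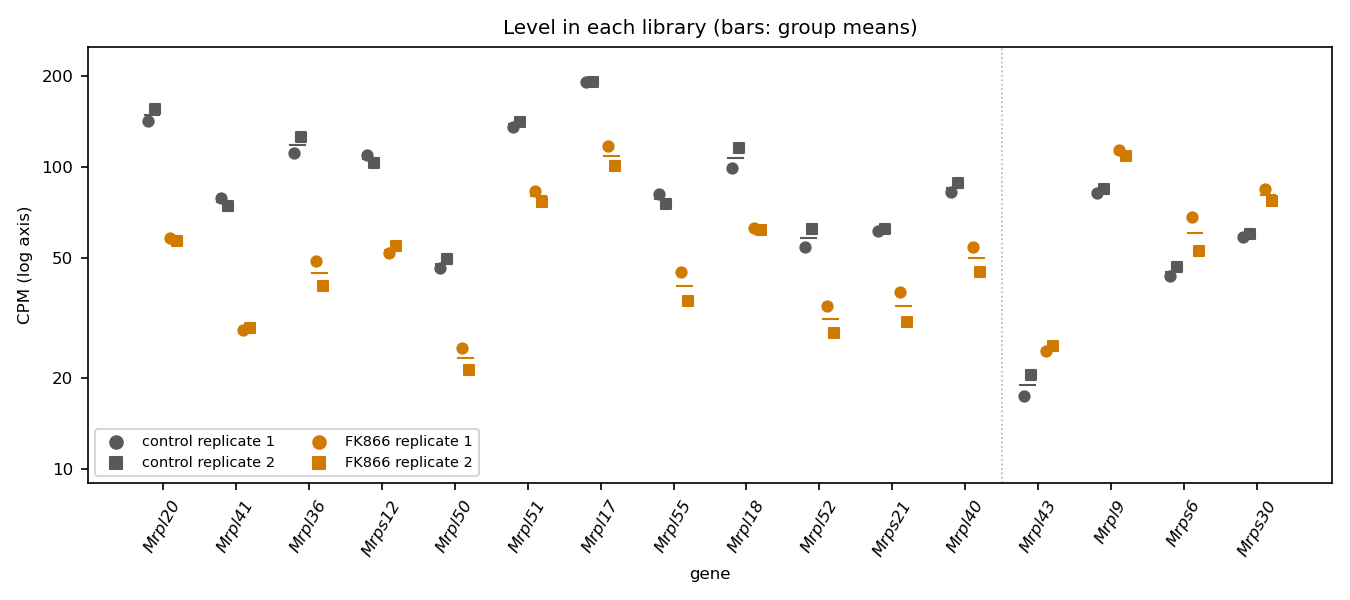
Level in CPM (y axis, log scale) of 16 members in each library, with control in grey and FK866 in orange, circles for replicate 1, squares for replicate 2 and short bars for group means; left of the dotted line are the 12 members with the smallest adjusted p and right of it the 4 with both FK866 libraries above both controls. In every gene shown the 2 groups do not overlap, and the genes were chosen for their call or for that order.

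Mrpl12 binds translation factors as the stalk protein of the large subunit, and has also been reported to bind the mitochondrial RNA polymerase. It had 194 and 228 CPM in control and 132 and 140 CPM in FK866, a fall to a log2 fold change of −0.63 ± 0.14 (edgeR adjusted p 0.0206). It was the 1 called member among the 5 tested proteins of the stalks. At the exit tunnel 1 of 6 was called (Mrpl17), at the central protuberance 3 of 7, and in the head of the small subunit 3 of 8. All of these 26 proteins had a negative log2 fold change, and their site medians lay between −0.41 and −0.33. No difference between sites was tested.

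Mrps36, the member now assigned to the 2-oxoglutarate dehydrogenase complex, had 28.4 and 45.5 CPM in control and 20.8 and 20.4 CPM in FK866. The controls differed widely, and the fall (log2 fold change −0.84 ± 0.24) passed narrowly at an edgeR adjusted p of 0.0488. Mrps18a, placed in the large subunit despite its name, had 101 and 95.6 CPM against 77.5 and 81.1 CPM (−0.31, edgeR adjusted p 0.18).

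Of the 50 members that did not pass the test, 44 had a negative log2 fold change, and in 36 both FK866 libraries lay below both controls. The 3 with the lowest fold changes among them were Mrpl34 (−0.51, edgeR adjusted p 0.0840), Mrpl32 (−0.49, edgeR adjusted p 0.0891) and Mrpl24 (−0.48, edgeR adjusted p 0.0888). In 10 members the groups overlapped, and the log2 fold changes of these lay near 0, among them Mrpl1 (−0.01), Mrpl39 (−0.03) and Mrpl30 (0.06).

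Mrps30, Mrpl9, Mrps6 and Mrpl43 had both FK866 libraries above both controls. Mrps30, a large-subunit protein also known as PDCD9, had 58.8 and 60.2 CPM in control and 84.4 and 77.1 CPM in FK866 (log2 fold change 0.44 ± 0.14, edgeR adjusted p 0.0737). Mrpl9, a homolog of bacterial L9, had 82.3 and 84.8 CPM in control and 114 and 109 CPM in FK866 (0.42 ± 0.13, edgeR adjusted p 0.0706). Mrps6, a homolog of bacterial S6, had 43.5 and 46.6 CPM against 68.6 and 53.0 CPM, with FK866 replicate 1 standing apart (0.43, edgeR adjusted p 0.14). The values of Mrpl43 were 17.5 and 20.5 CPM in control and 24.5 and 25.5 CPM in FK866 (0.40, edgeR adjusted p 0.21), and 33.4% of its exon bases overlap Twnk, the gene of the mitochondrial DNA helicase on the opposite strand. None of the 4 passed the test. DESeq2 called Mrpl9 and Mrps30 higher, as did scaling by library totals and by the upper quartile.

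Genes of both subunits fell. Of 48 tested Mrpl genes 18 were called lower (37.5%, median log2 fold change −0.41), and of 29 Mrps genes 9 were (31.0%), with a median of −0.33. By place in the structure the counts were 18 of 50 large-subunit genes (36.0%, median −0.38) and 8 of 26 small-subunit genes (30.8%, median −0.33). No test of a difference between the subunits was run on these lists. Without FK866 replicate 2, 8 Mrpl and 2 Mrps genes were called lower, and without control replicate 1, 28 and 14 were.

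Summed per kb of transcript, the large-subunit level was 2.07 and 2.10 times that of the small subunit in control replicates 1 and 2, and 1.97 and 1.95 times in FK866 replicates 1 and 2 (2.09 ± 0.018 against 1.96 ± 0.015, SD, n = 2 each). Both FK866 ratios lay below both control ratios, and 2 libraries against 2 allow no exact test to reach the 0.05 threshold. The gap was smaller without Mrpl20: leaving out Mrpl20 and Mrps17, the most abundant member of each subunit, gave ratios of 2.08 in control and 2.03 in FK866. In control the subunit sums were 3922 ± 80.8 and 1879 ± 22.2 CPM per kb, and FK866 brought them to 71.2% and 75.9% of those values.

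The order of abundance within a subunit also differed between groups in part. Per kb of transcript, Mrpl20 (301) was followed in control by Mrpl42 (227), Mrpl30 (170) and Mrpl54 (169). In FK866, Mrpl30 (178) and Mrpl42 (174) lay above Mrpl54 (155) and Mrpl20 (117). Mrpl42 had 148 and 151 CPM in control and 122 and 107 CPM in FK866 (−0.38, edgeR adjusted p 0.0951), and Mrpl54 had 104 and 100.4 CPM against 96.8 and 90.1 CPM (−0.13, edgeR adjusted p 0.59). Mrpl30, with 106 and 120 CPM against 119 and 116 CPM, overlapped between the groups (edgeR adjusted p 0.83). The most abundant small-subunit genes, Mrps21, Mrps17, Mrps12, Mrps15 and Mrps18a, lay close together in control at 139, 137, 133, 133 and 130 CPM per kb. In FK866, Mrps15 (108), Mrps17 (108) and Mrps18a (105) lay above Mrps21 (77.5) and Mrps12 (66.4). Mrps17 (−0.34, edgeR adjusted p 0.12) and Mrps15 (−0.29, edgeR adjusted p 0.24) did not pass the test. By mean CPM per kb over the 4 libraries, the lowest 2 of each subunit were Mrpl47 (8.24) and Mrpl1 (11.6), and Mrps25 (7.61) and Mrps35 (14.6).

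Members of both lines of descent fell. Of 48 tested proteins with a bacterial homolog 17 were called lower (median −0.40), and of 28 that are mitochondria-specific 9 were (median −0.33).

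Fold changes in these libraries were related to transcript length, and the members are short. Their median transcript length was 1226 nt, against 2792 nt for the protein-coding genes in their range of level. Across those protein-coding genes, log2 fold change and log2 transcript length had a Pearson r of 0.33 (n = 5535 genes of the same 4 libraries, which are not independent replicates), with shorter transcripts lower in FK866. Across the 77 members r was 0.18.

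The shortest 26 members (440.5 to 941 nt) had a median log2 fold change of −0.40 and 10 called lower, and other protein-coding genes of those lengths and levels had a median of −0.45 with 39.2% called lower. In the middle were 25 members (970 to 1634.5 nt) with a median of −0.35 and 8 called lower, beside other genes with a median of −0.30 and 25.8% called lower. The longest 26 members (1849 to 6073 nt) had a median of −0.36 and 9 called lower, while other genes of those lengths had a median of 0.03 and 11.8% called lower. The short members' median thus lay near that of other short genes, and the long members' median lay below that of other long genes, as a description with no test. This division by length was made after the values were seen.

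**Figure D3:**
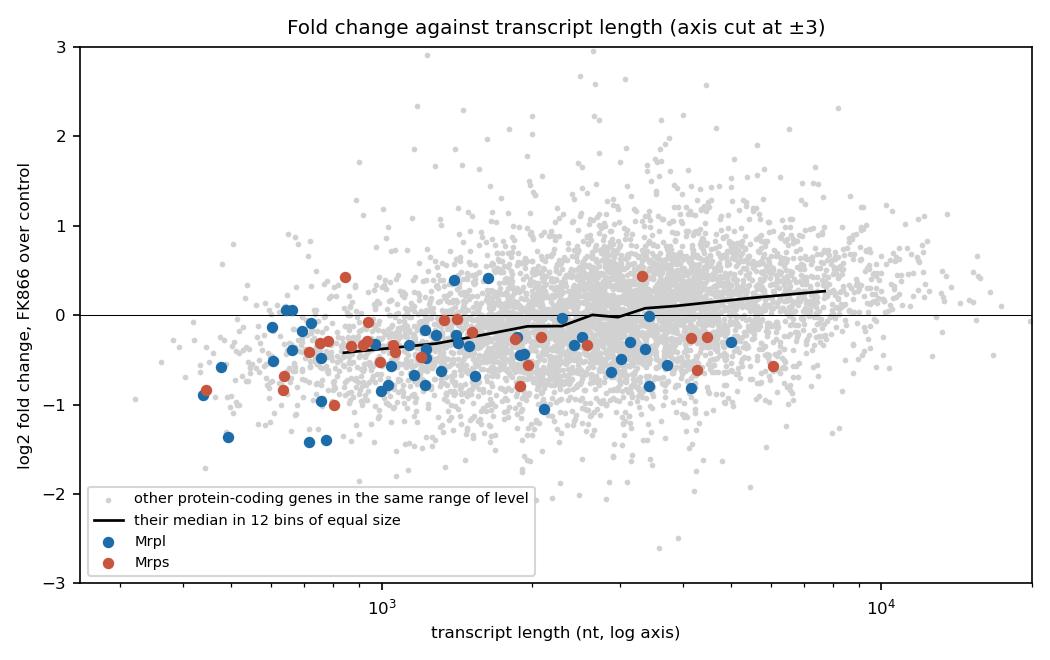
Log2 fold change of FK866 over control (y axis) against transcript length in nt (x axis, log scale) for the Mrpl genes (blue), the Mrps genes (red) and other protein-coding genes in the members' range of mean level (grey), with the median of the grey points in 12 bins as a line. The line rises from left to right, short members scatter about it, and most members over 1849 nt lie below it.

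With the length and GC trend of each library removed before the test, 17 members were called lower and 7 higher, with a median of −0.16 against 0.13 over all genes. In that fit 7.15% of all genes were called lower and 8.3% higher. Of the 5537 protein-coding genes in the members' range of level, 790 were called lower and 954 higher, with a median of 0.03. All 17 members called lower were among the 27 calls, and the 10 lost were Mrpl2, Mrpl12, Mrpl16, Mrpl28, Mrpl33, Mrpl52, Mrps18c, Mrps21, Mrps24 and Mrps36. The 7 higher calls were Mrpl9 (0.63), Mrps30 (0.46), Mrps6, Mrpl43, Mrpl14, Mrpl30 and Mrpl54, the last of which turned from −0.13 to 0.35. Across the members, Pearson r of fold change with log2 transcript length turned from 0.18 to −0.24. With GC content it went from −0.03 to 0.24. The fold changes of members thus still varied with length and GC content in this fit, in the other direction for length, which limits its gained and lost calls. Mrpl20 (−0.96), Mrpl41 (−1.04), Mrpl36 (−1.01), Mrps12 (−0.58), Mrpl50 (−0.88) and Mrpl17 (−0.90) still fell. In all 13 fits that were run, 10 members were called lower: Mrpl17, Mrpl18, Mrpl20, Mrpl36, Mrpl41, Mrpl50, Mrpl51, Mrpl55, Mrps12 and Mrps14.

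**Figure D4:**
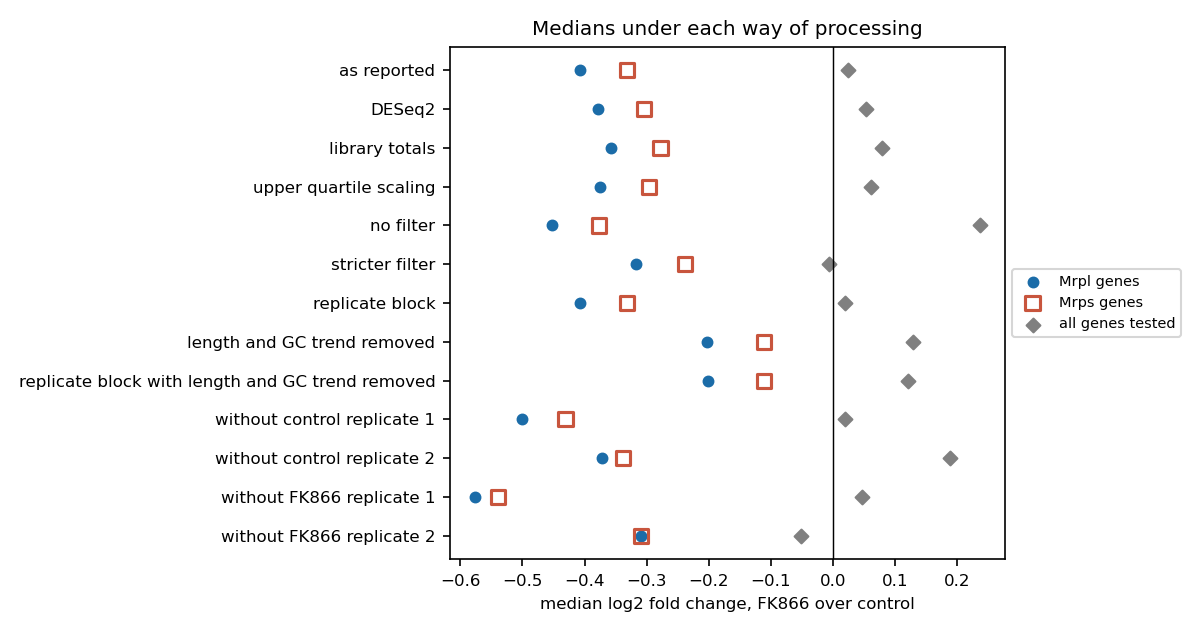
Median log2 fold change of FK866 over control (x axis) for the Mrpl genes (blue circles), the Mrps genes (open red squares) and all genes tested (grey diamonds) under each of 13 ways of processing the same counts (rows). Both subunit medians stay below 0 and below the median of all genes in every row, and they lie closest to 0, at −0.20 and −0.11, where the length and GC trend was removed.

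Other gene groups show where the members stand. Proteins of the cytosolic ribosome, which are short as well (median 744 nt), had 2 of 77 called lower and 2 higher, and their median log2 fold change was 0.01. After removal of the length and GC trend 1 of those was called lower and 47 higher, at a median of 0.36. The 5 mitoribosomal proteins whose symbols do not begin with Mrp had 1 call: Chchd1, of the small subunit, fell from 74.4 and 77.8 CPM to 53.5 and 50.7 CPM (−0.55, edgeR adjusted p 0.0363). Gadd45gip1 (−0.36), Ptcd3 (−0.27), Aurkaip1 (−0.16) and the GTP-binding protein Dap3 (0.17) did not pass the test.

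Factors that assemble the mitoribosome or modify its rRNA had 9 of 34 called lower and 0 higher (median −0.38). Mtg1 (−1.03) and Mtg2 (−0.75), GTPases of large-subunit assembly, and Mrm3 (−0.88), a methyltransferase of the large rRNA, fell. Of 15 mitochondrial translation factors 5 were lower and 1 higher (median −0.30). The initiation factors went apart, since Mtif2 fell (46.5 and 57.8 CPM in control, 23.99 and 21.1 CPM in FK866, −1.21 ± 0.18) and Mtif3 rose (16.2 and 15.8 CPM to 33.2 and 32.5 CPM, 1.04 ± 0.18), at edgeR adjusted p values of 0.0056 and 0.0083. Mtif3 is the factor that keeps the subunits apart before initiation, and Mtif2 brings the initiator tRNA.

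Mitochondrial aminoacyl-tRNA synthetases, which load tRNAs for this ribosome, had 5 of 20 lower and 3 higher (median −0.14). Rars2 (−1.27) fell and Wars2 (1.35) rose. Genes of mitochondrial transcription and RNA processing had 6 of 24 lower and 0 higher (median −0.24), with falls of the elongation factor Tefm (−1.31), the single-stranded DNA-binding protein Ssbp1 (−1.03) and the exoribonuclease Pnpt1 (−0.76). A list of general mitochondrial proteins of the outer membrane, the import machinery and the matrix had 5 of 17 lower and 0 higher (median −0.36), among them Phb (−0.61), Vdac3 (−0.58) and Vdac1 (−0.51). After removal of the length and GC trend, that list had 1 lower and 1 higher (median −0.17). Phb kept its call there, and Vdac3 and Vdac1 lost theirs. In the same fit assembly and rRNA factors had 7 lower and 5 higher (median −0.25), and translation factors 4 and 1 (−0.28). The synthetases had 7 lower and 4 higher (0.002), and transcription and RNA processing 4 and 1 (−0.12). None of these differences between lists was tested.

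**Figure D5:**
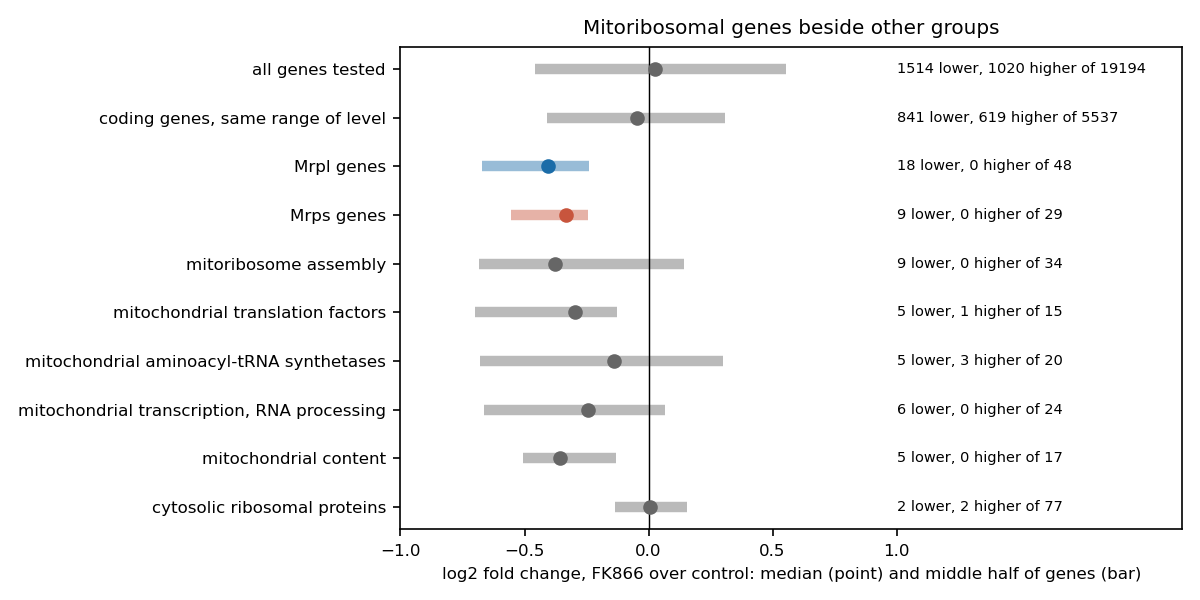
Median log2 fold change of FK866 over control (points, x axis) and the middle 50% of genes (bars) for the Mrpl and Mrps genes and the comparison lists, with the number of genes called lower and higher written at the right. The medians of the Mrpl and Mrps genes are −0.41 and −0.33, and that of cytosolic ribosomal proteins is 0.01.

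The RNAs that work with these proteins come from mitochondrial DNA. Neither rRNA passed the test: mt-Rnr1, of the small subunit, had 36.9 and 103 CPM in control and 64.4 and 82.6 CPM in FK866 (log2 fold change 0.08), and mt-Rnr2, of the large subunit, had 504 and 1036 CPM against 661 and 637 CPM (−0.25). In both rRNAs the control replicates differed by more than the group means did. These values are reads in SMART-Seq HT cDNA, and how fully that cDNA captures rRNA was not tested. They are not a measure of the amount of mitochondrial rRNA. Of the 11 tested mitochondrial mRNAs, mt-Co1 rose (1474 and 1936 CPM to 2386 and 2867 CPM, 0.62, edgeR adjusted p 0.0320). The other 10 did not pass the test, and all of them had a negative log2 fold change (median of the 11 −0.47). Examples are mt-Cytb (−0.57) and mt-Co3 (−0.80), the latter at only 13.9 and 25.3 CPM in control and 10.6 and 11.9 CPM in FK866. Low as well were mt-Co2 (6.36 and 10.9 CPM in control, 6.27 and 6.18 CPM in FK866) and mt-Atp6 (5.23 and 12.7 CPM, 4.34 and 7.47 CPM). The lowest tested was mt-Nd3 (1.68 and 4.91 CPM, 0.89 and 2.06 CPM). The median thus includes mRNAs far below mt-Co1 in level. How reads with multiple alignments were counted is not known, and its part in these levels was not tested. In only 3 of the 11 did both FK866 libraries lie below both controls, against 29.3% of all genes tested. The control replicates differed widely here too, as in mt-Nd1 (838 and 1553 CPM) and mt-Nd2 (295 and 614 CPM).

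The factors whose motifs are marked in the promoters were not called at the mRNA level. Nrf1 had a log2 fold change of −0.06, Gabpa −0.15 and Yy1 0.38. Among 13 regulators of mitochondrial biogenesis 2 fell, Esrra (−1.04), an orphan nuclear receptor, and Hcfc1 (−0.53), a transcriptional coregulator. That share (15.4%) was near the 15.2% of protein-coding genes in the members' range of level, and the median of the 13 was 0.03. RefSeq promoters, from 250 bases before the start to 50 after it, were matched for 69 of the 78 members. At least 1 of the 3 motifs was found in 42 of them (60.9%), against 19.5% of the promoters of protein-coding genes and 15.2% of all promoters in the table. GABPA matches were in 36.2% of members (all promoters 9.12%), NRF1 matches in 18.8% (4.78%) and YY1 matches in 17.4% (2.88%). A motif was found in 16 of 27 called members (59.3%) and in 25 of 41 tested members that were not called (61.0%).

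Many members start next to another gene. For 33 of 78 (42.3%) a protein-coding gene on the opposite strand begins within 1000 bp, in head-to-head order, against 10.8% of all protein-coding genes. Of the 12 called members with a tested partner, the partner was called lower in 2 pairs, Mrpl18 with the chaperonin subunit Tcp1 (−0.63) and Mrpl36 with the complex I subunit Ndufs6 (−0.50). The partner was called higher in 1 pair, Mrpl50 (−1.05) with the zinc-finger gene Zfp189 (1.11). Over all 31 members with a tested partner, 5 partners were lower and 2 higher. Of all 14428 protein-coding genes tested, 1435 were lower and 948 higher. Mrpl18 shares 10.1% of its exon bases with Tcp1 on the opposite strand, where their reads could not be told apart. Mrps12 and its partner Sars2, which encodes the mitochondrial seryl-tRNA synthetase, had −1.002 and −0.02. Mrpl46 and Mrps11 share a start region with each other and had −0.33 each. These neighbours were looked up after the members' values were seen. The Mrpl36 pair was placed by the first base of its gene span. Its printed RefSeq promoter starts further inside the gene and is not the region next to Ndufs6.

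Reads of overlapping genes could not be told apart, on opposite strands because the cDNA kit does not mark the strand, and on the same strand because the counting rule is not known. Of the 78 members, 25 share more than 5% of their exon bases with another gene, most of all Mrpl53 (88.0%), Mrps34 (77.8%) and Mrps25 (69.8%), whose values are uncertain because of it. Of the 27 called members, 21 share 5% or less. Mrpl53, of the large-subunit stalk region (chromosome 6, 83109040 to 83109939, plus strand), had 0 counts in each library, which allows up to 3 counts, or 0.0793 to 0.109 CPM (counting error only). The gene Gm42688, which runs across it on the same strand, had 11 to 25 counts. Processed pseudogenes named after members, 5 in number, had at most 56 counts in a library.

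The 3 protein-coding genes outside the members whose level over the 4 libraries was closest in shape to the members' mean were Psma2, Pdk1 and Cnot9. The root mean square differences were 0.010, 0.011 and 0.013 on the centred log2 CPM scale, among 5537 candidates. Psma2 was 682 and 713 CPM in control and 537 and 498 CPM in FK866 (−0.43, edgeR adjusted p 0.0458).

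Library totals ran from 27617750 to 37841233 counts, and IDs with at least 10 counts numbered 17152 to 18667 in 3 libraries and 22461 in FK866 replicate 2. Marker sums are given in CPM of the unscaled library totals. The 12 ILC2 markers summed to 4830 to 5050 CPM in control and 4303 to 4774 CPM in FK866, but they did not move together. Rora rose (337 and 375 CPM in control, 1185 and 1128 CPM in FK866, log2 fold change 1.70), while Nmur1 (−1.18), Id2 (−0.89) and Il13 (−1.49) fell. Rora was set apart after its values were seen. Without it the sums were 4506 and 4675 CPM in control and 3617 and 3113 CPM in FK866, 73.3% of control by the means. The 74.6% given for the mitoribosomal members is on the TMM scale, so these shares are not directly comparable. Summed over 8 genes, T cell markers lay at 287 to 326 and 227 to 282 CPM, with Cd3d, Trac, Cd8a and Cd8b1 under 1 CPM in every library. The 6 myeloid markers summed to 5.23 to 5.69 CPM in control and 12.7 to 14.5 CPM in FK866, and the 6 stromal and endothelial markers to 145 to 176 and 202 to 223 CPM. Pecam1 made up almost all of the stromal and endothelial sum. On the TMM scale Pecam1 was at 181 and 142 CPM in control, and at 225 and 187 CPM in FK866. That difference was not called (log2 fold change 0.35). Col1a1, Col1a2, Col3a1, Pdgfra and Cdh5 each lay at 1.71 CPM or less in every library. B cell markers (5 genes) summed to 30.4 to 35.0 CPM in control and 18.9 to 27.3 CPM in FK866, with Cd79a, Ms4a1 and Pax5 under 1 CPM in every library. The sums of ILC3, NK cell, mast cell and epithelial markers overlapped between the groups, at no more than 269, 10.4, 1.14 and 55.5 CPM, although 2 ILC3 genes, Il17f and Il23r, were called higher in FK866. The part of these markers in the lower mitoribosomal levels was not tested.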

How the data were processed

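RNA-seq was done on 2 control and 2 FK866 libraries. Per the labels' protocols, RNA came from TRIzol, full-length cDNA from SMART-Seq HT and libraries from Nextera XT. The deposited values are raw counts of reads for each Ensembl gene, in whole numbers. The submitters' processing notes list cutadapt 1.9, HISAT2 2.2.1 and the build mm10. How reads were counted over genes (program, strand setting, multiple alignments) is not stated in those sources.

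Positions, transcript lengths (median over a gene's coding transcripts) and symbols came from GENCODE M21 (GRCm38), which named 55227 of 55487 IDs. Group and replicate number were read from the titles. Genes were filtered by filterByExpr (minimum count 10, minimum total 15), scaled by TMM and tested by edgeR 4.0.16 (R 4.3.3) with its quasi-likelihood test, two-sided, on a model of treatment alone, with Benjamini-Hochberg adjustment over all 19194 genes and a call at an adjusted p under 0.05. Each SE was taken as |log2 fold change| / √F. The libraries of a group differed by more than sampling noise (chi-square per degree of freedom 35.8 for the controls and 19.0 for FK866), so each counted as 1 sample. On simulated data from the same 17662 genes with counts, the test recovered 75 of 100 2-fold and 98 of 100 4-fold changes, with 11 of 184 calls false.

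Alternatives were DESeq2 1.42.0, other scalings and filters, a length and GC trend per library removed with mgcv 1.9.3, a replicate block, and each library left out. The members and lists were chosen with earlier results of these data known. Members named are the 12 calls with the smallest adjusted p, the 4 most and 2 least abundant per kb of each subunit, the 3 uncalled members with the largest change in each direction, and 5 with particular roles; other lists are named by up to 3 calls with the smallest adjusted p, except where a gene is not reported here. Further members named for overlap, site, order or calls under an alternative were chosen after their values were seen. Motifs were searched as exact letters on both strands, in the first promoter of each gene.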

Additional observations from a re-analysis of the deposited data

How the results depend on the processing

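The members' median log2 fold change stayed negative in all 13 fits, and the median of all genes lay above it in each. Removing the length and GC trend gave 17 members lower (5 of them Mrps genes) and 7 higher, medians of −0.16 for all members, −0.20 for Mrpl and −0.11 for Mrps, 0.13 over all genes (a gap of −0.29), and 1594 genes higher. The median of the protein-coding genes in the members' range of level was 0.03 there, nearer to that of the members. Mrpl54 turned from −0.13 to 0.35 in that fit and to 0.35 with the replicate block as well (edgeR adjusted p 0.0485 and 0.0146), and was negative in every other fit (adjusted p 0.52 to 0.94). DESeq2, library totals and the upper quartile each called 2 members higher. The median of all genes was 0.079 with library totals and 0.24 without a filter, where the gap of the members was −0.66. A stricter filter (minimum count 50) gave 3 members higher, 1798 genes higher and a gap of −0.28. For these changes the cause was not tested, beyond the change in genes tested that a filter makes.

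Leaving out 1 library at a time gave 10 to 42 members lower, 8 to 28 Mrpl and 2 to 14 Mrps genes. All-gene counts ran from 828 to 2462 lower and from 661 to 1457 higher. Medians ran from −0.55 to −0.31 for members, −0.58 to −0.31 for Mrpl, −0.54 to −0.31 for Mrps and −0.052 to 0.19 for all genes, with gaps from −0.60 to −0.26. The lowest counts of members came without FK866 replicate 2.

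Replicate numbers are shared between the groups, but nothing in the labels says that they mark a shared source. Same-numbered libraries deviated together at a correlation of 0.37 over 9701 genes, from 2 pairs. With the replicate block, 41 members were lower (28 Mrpl) and 3 higher, with 3059 genes lower and 2197 higher. With the replicate block and the trend removed, 7 members were higher, 2596 genes were higher, and medians were −0.16 for members, −0.20 for Mrpl, −0.11 for Mrps and 0.12 for all genes, a gap of −0.28.

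The ratio of large to small subunit was 1.98 in control and 1.86 in FK866 by CPM, and 2.43 and 2.31 by place in the structure; without the most abundant member of each it was 2.03 in FK866. Of 432 values of single genes under alternatives, 376 kept their direction and side of the threshold, 33 passed it only there, 21 no longer passed it and 2 reversed. The count filter left out 1 member, Mrpl53, listed at 0.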
